A study of Mus musculus with 17 samples.

Results

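SIRPα and the inhibitory receptors of myeloid cells were followed, with the CD47 ligand and the phosphatases that the receptors engage, in RNA of sorted mouse Kupffer cells (KCs). The 10 genes were chosen by name, as *Sirpa*, *Cd47*, *Siglecg*, *Siglece*, *Lair1*, *Pilra*, *Cd300a*, *Cd200r1*, *Ptpn6* and *Ptpn11*, and each was found by its symbol among the 25124 genes of each of 3 tables. All 10 passed the filter on low values in every table. KCs are the resident macrophages of the liver sinusoids, and the study asked how they respond to liver tumours and what the transcription regulator ID3 does in them.

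Of 17 samples, 3 were TIM4+CD206+ KCs from untreated, tumour-free mice and 3 were the same subset from mice given tumour cells into the portal vein 2 weeks earlier. TIM4+CD206 high KCs gave another 3 tumour-free and 3 tumour-bearing samples. The remaining samples were KCs of untreated *Id3* f/f mice (n = 3), which carry the floxed alleles without Cre, and, with n = 2, of *Clec4f* cre*Id3* f/f animals, in which Cre driven by the KC gene *Clec4f* acts on the same alleles. The injected cells were of a mouse pancreatic adenocarcinoma line. The ages of the sampled mice were not given in the sources used here.

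SIRPα is an inhibitory receptor whose ligand, CD47, is displayed by nearly all cells and restrains their uptake by macrophages. When ligand binds, tyrosines in the receptor tail are phosphorylated and recruit the phosphatases SHP-1 (*Ptpn6*) and SHP-2 (*Ptpn11*), and the sialic-acid receptors, LAIR1, PILRα and CD300a work through similar tails. ID3 lacks a DNA-binding domain and acts by pairing with E proteins such as the product of *Tcf3*.

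Values are given on the deposited log2 scale, on which a difference of 1 is a doubling (low genes understate it). Each table was normalised on its own, so levels of different tables are set side by side without a test. The tables hold no counts, so the depth behind each value is unknown. In bulk samples, fewer cells of a type and less RNA per cell cannot be told apart.

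*Sirpa* was abundant in every group. Scaled to exon length, its level stood at the 95.9th percentile of the genes tested in tumour-free TIM4+CD206+ KCs, at the 96.0th in tumour-free TIM4+CD206 high KCs and at the 95.9th in *Id3* f/f KCs. *Ptpn6* had the highest level per length of the 10 genes in both tumour-free groups, at the 98.9th percentile in each, and *Siglece* in *Id3* f/f KCs, at the 98.0th. *Ptpn11* was far lower, at the 49.0th, 50.5th and 60.9th percentiles in the same order. *Siglecg* was the lowest of the 10 in TIM4+CD206 high and *Id3* f/f KCs, at the 31.2nd and 5.57th percentiles. In TIM4+CD206+ KCs the length-scaled level of *Siglecg*, 6.62, was next to that of *Ptpn11*, 6.59, a gap within the spread between samples.

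**Figure D1:**
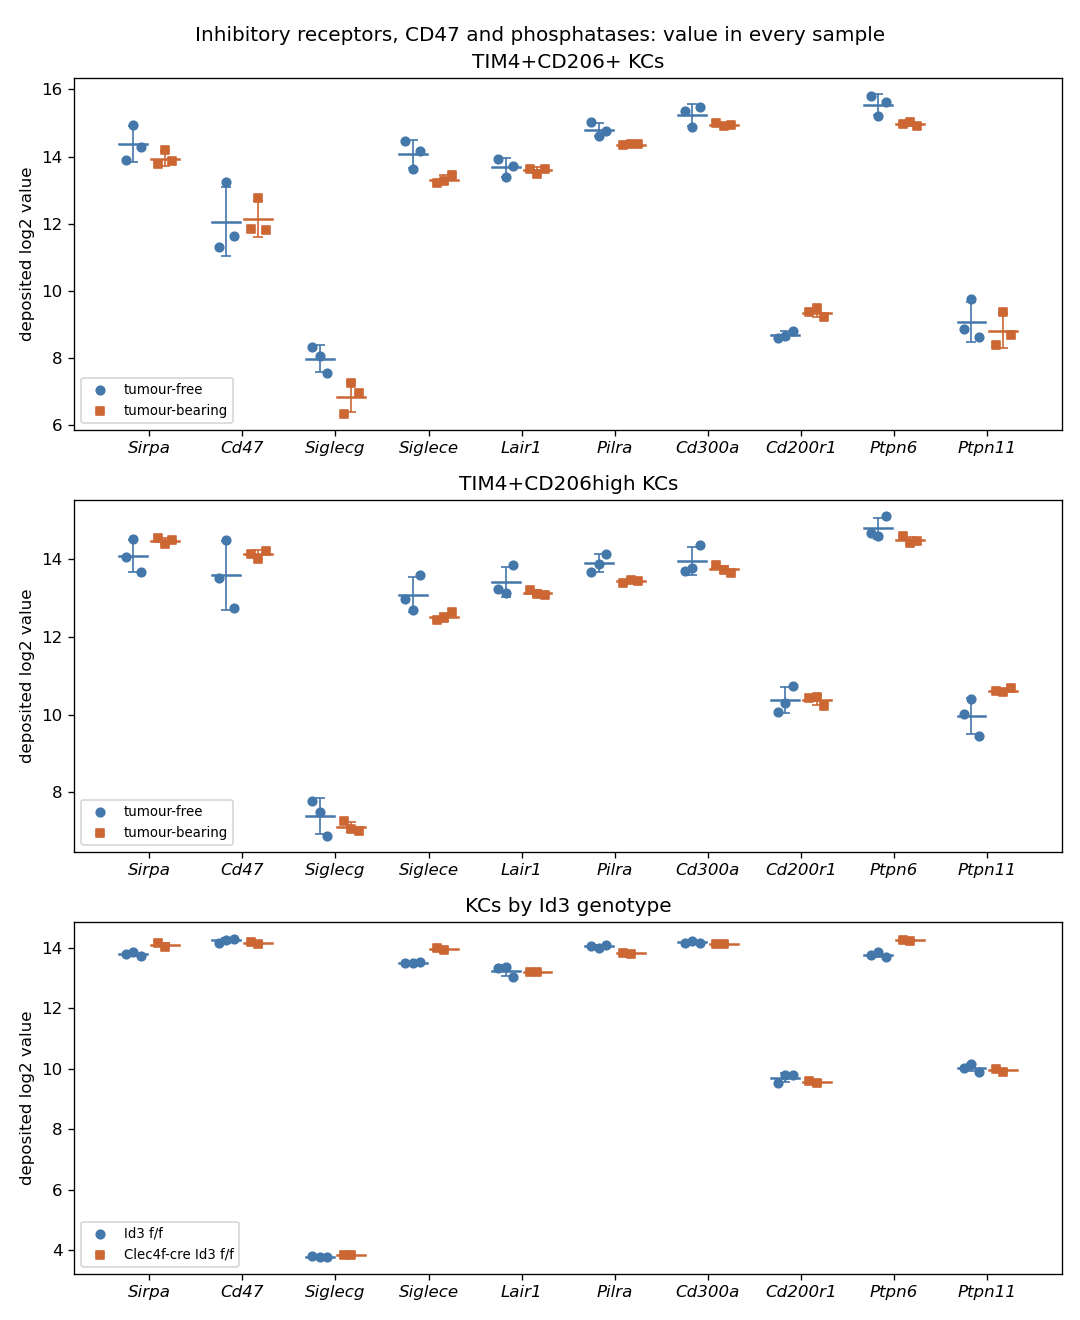
Deposited log2 value (vertical axis) of each of the 10 genes in every sample, with group mean (line) and SD (bar), in TIM4+CD206+ KCs, TIM4+CD206 high KCs and KCs by *Id3* genotype. Tumour-free replicate 2 is the highest tumour-free sample for *Sirpa*, *Cd47* and *Ptpn11* in both tumour tables.

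In TIM4+CD206+ KCs *Sirpa* read 13.90, 14.94 and 14.28 in the tumour-free samples and 13.77, 14.19 and 13.86 in the tumour-bearing samples. Tumour-free replicate 2 was the highest and the groups overlapped, while within each replicate number the tumour-bearing sample was lower. The mean was 14.37 ± 0.53 (SD, n = 3) without and 13.94 ± 0.22 (n = 3) with tumour, a log2 fold change of -0.43 ± 0.26 (SE; limma, adjusted p = 0.48). The change was -0.15 when tumour-free replicate 2 was dropped, -0.67 when tumour-free replicate 1 was, and -0.29 with the length and GC trend removed (below). A fit blocked on the replicate number gave -0.43 ± 0.18 (SE; limma, adjusted p = 0.18). In TIM4+CD206 high KCs *Sirpa* read 14.06, 14.51 and 13.66 without tumour and 14.55, 14.39 and 14.49 with it. Here the tumour-bearing samples lay close together around the top of the tumour-free range, again with overlap. The means were 14.08 ± 0.42 and 14.47 ± 0.08, a log2 fold change of 0.40 ± 0.23 (limma, adjusted p = 0.36). Without tumour-free replicate 2 the change was 0.61 and the adjusted p 0.046, and when tumour-free replicate 3 was dropped they were 0.19 and 0.50. The signs in the subsets were opposite, and the difference between the subsets was not tested.

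*Cd47*, the ligand, had the largest SD of the 10 genes in both tumour-free subsets, 1.03 and 0.88. In TIM4+CD206+ KCs it read 11.31, 13.23 and 11.64 in tumour-free and 11.84, 12.76 and 11.82 in tumour-bearing samples. Replicate 2 was the highest sample of each group. In TIM4+CD206 high KCs it read 13.52, 14.48 and 12.74 without tumour and 14.12, 14.00 and 14.22 with it. The tumour-bearing samples all fell inside the tumour-free range. The log2 fold changes were 0.08 ± 0.48 (limma, adjusted p = 0.96) in the former subset and 0.53 ± 0.40 (adjusted p = 0.47) in the latter, where it was 0.99 (adjusted p = 0.03) without tumour-free replicate 2 and 0.11 (adjusted p = 0.84) when replicate 3 was dropped. In TIM4+CD206+ KCs the sign of the *Cd47* change turned when certain single samples were left out. It was 0.66 when tumour-free replicate 2 was omitted, -0.30 when tumour-free replicate 1 was, -0.13 when tumour-free replicate 3 was, and -0.23 when tumour-bearing replicate 2 was.

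The samples also differed in their trend with GC content. The slope of each sample's deviation on GC content, per 10 percentage points, was 0.14 in tumour-free TIM4+CD206+ replicate 2, against 0.01 and 0.06 in the other tumour-free samples, and -0.16, 0.07 and -0.13 in the tumour-bearing samples. In TIM4+CD206 high KCs it was -0.48 in tumour-free replicate 3, where *Sirpa* and *Cd47* were lowest, and 0.13 in tumour-free replicate 2, where they were highest among tumour-free samples. Tumour-free replicate 1 had -0.02 and the tumour-bearing samples 0.13, 0.10 and 0.13. The GC content was 53.87% for *Sirpa* and lower, 44.62%, for *Cd47*. In an alternative chosen after seeing the data, each sample's trend with length and GC was removed, and the changes in TIM4+CD206+ KCs were -0.29 for *Sirpa*, -0.28 for *Pilra*, -0.16 for *Cd300a*, -0.10 for *Ptpn11*, 0.01 for *Cd47* and 0.44 for *Cd200r1*, against -0.43, -0.45, -0.30, -0.26, 0.08 and 0.66 before. In TIM4+CD206 high KCs *Sirpa* was 0.30 against 0.40, *Cd47* 0.61 against 0.53 and *Ptpn6* -0.42 against -0.30. The same correction in a fit with the replicate block called *Siglece* in TIM4+CD206+ KCs (-0.72, adjusted p = 0.032), as the block alone did, but not *Siglecg*. Its part in the differences was otherwise not tested.

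The sialic-acid receptors came next. Siglec-E (*Siglece*), an inhibitory receptor of myeloid cells, read 14.45, 13.63 and 14.16 in tumour-free and 13.20, 13.28 and 13.46 in tumour-bearing TIM4+CD206+ KCs. Every tumour-bearing sample was below every tumour-free sample. The log2 fold change was -0.77 ± 0.22 (limma, adjusted p = 0.11), a fit blocked on the replicate number gave an adjusted p of 0.035, quantile normalisation gave 0.048, and leaving out tumour-free replicate 2 gave 0.0062. The TIM4+CD206 high samples read 12.98, 12.70 and 13.60 without and 12.44, 12.48 and 12.63 with tumour. The groups again did not overlap, with a log2 fold change of -0.58 ± 0.24 (limma, adjusted p = 0.23, or 0.04 without tumour-free replicate 2). It was -0.32 (adjusted p = 0.19) when tumour-free replicate 3 was dropped. Siglec-G (*Siglecg*), best known from B cells and a receptor for CD24, read 8.34, 8.05 and 7.55 without and 6.35, 7.26 and 6.95 with tumour in TIM4+CD206+ KCs. All tumour-bearing samples were lower, the change was -1.13 ± 0.33 (limma, adjusted p = 0.12), and the blocked fit gave an adjusted p of 0.049.

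The B cell markers *Cd22*, *Cd79b* and *Cd79a* were also lower with tumour in that table, and *Cd79b* had the highest level per length of them. Their part in the *Siglecg* result was not tested. In TIM4+CD206 high KCs *Siglecg* read 7.78, 7.50 and 6.89 without and 7.27, 7.06 and 7.01 with tumour, and the groups overlapped.

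Among the other receptors, *Pilra*, which binds sialylated ligands, read 15.02, 14.62 and 14.75 in tumour-free and 14.33, 14.36 and 14.37 in tumour-bearing TIM4+CD206+ KCs. It read 13.67, 13.87 and 14.14 against 13.38, 13.47 and 13.45 in TIM4+CD206 high KCs. All tumour-bearing samples were lower in each subset, with log2 fold changes of -0.45 ± 0.16 (limma, adjusted p = 0.19, or 0.031 without tumour-free replicate 2) and -0.46 ± 0.17 (adjusted p = 0.18). *Cd200r1*, the receptor of CD200, read 8.59, 8.67 and 8.81 without and 9.37, 9.48 and 9.21 with tumour in TIM4+CD206+ KCs. It was the only gene of the 10 with all tumour-bearing samples higher there, at 0.66 ± 0.20 (limma, adjusted p = 0.12). The mean of *Cd200r1* was 10.37 in both groups of the TIM4+CD206 high subset. *Lair1*, a collagen receptor, and *Cd300a*, a receptor for phospholipids of dying cells, had overlapping groups in both subsets, with log2 fold changes from -0.30 to -0.10. *Cd300a* passed without tumour-free replicate 2 of TIM4+CD206+ KCs (-0.48, limma, adjusted p = 0.028). It was -0.18 (adjusted p = 0.77) without tumour-free replicate 3. *Lair1* turned to 0.03 when tumour-free replicate 1 of that subset was dropped.

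With all samples, limma passed neither phosphatase in either subset, and the difference between them was not tested. *Ptpn6* read 15.80, 15.20 and 15.62 in tumour-free and 14.96, 15.03 and 14.92 in tumour-bearing TIM4+CD206+ KCs. Every tumour-bearing sample was lower, with a log2 fold change of -0.57 ± 0.18 (limma, adjusted p = 0.15, or 0.0065 without tumour-free replicate 2). The TIM4+CD206 high values were 14.67, 14.60 and 15.10 without and 14.59, 14.42 and 14.46 with tumour, again without overlap, at -0.30 ± 0.18 (limma, adjusted p = 0.38). That change was -0.15 when tumour-free replicate 3 was dropped, -0.13 under quantile normalisation and -0.47 under median centring. *Ptpn11* read 8.86, 9.75 and 8.62 against 8.39, 9.38 and 8.68 in TIM4+CD206+ KCs. Replicate 2 was high in both groups, which overlapped, and the change of -0.26 turned to 0.08 without tumour-free replicate 2. *Ptpn11* in TIM4+CD206 high KCs read 10.02, 10.40 and 9.46 without and 10.60, 10.59 and 10.68 with tumour. All tumour-bearing samples were higher there, at 0.66 ± 0.25 (limma, adjusted p = 0.19, or 0.023 without tumour-free replicate 2), and at 0.41 (adjusted p = 0.16) when tumour-free replicate 3 was dropped.

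In TIM4+CD206+ KCs, 0 of the 10 genes passed an adjusted p of 0.05 in limma, beside 3.54% of the 13233 genes tested, while 5 had an unadjusted p under 0.05, beside 17.2%. All tumour-bearing samples were higher for 1 gene and lower for 4, beside 12.9% and 10.5% of genes tested. Their median log2 fold change was -0.36, against 0.02 over all genes tested. The replicate block called 2 of the 10, *Siglece* and *Siglecg*, beside 7.75% of genes tested. For TIM4+CD206 high KCs limma passed 0 of the 10, beside 7.23% of 14561 genes, and 3 had an unadjusted p under 0.05, beside 21.1%. There 1 gene was higher and 3 were lower without overlap, beside 15.6% and 15.2%, with a median of -0.24 against 0.03. Quantile normalisation moved the median of all genes to -0.11 and median centring to -0.13, and the share of higher genes among those called from 72.0% to 56.2% and 64.5%. Without tumour-free replicate 2, 4 of the 10 passed in each subset: *Siglece*, *Pilra*, *Cd300a* and *Ptpn6* in TIM4+CD206+ KCs, and *Sirpa*, *Cd47*, *Siglece* and *Ptpn11* in TIM4+CD206 high KCs. The number of all genes called in TIM4+CD206+ KCs, 469, became 1022 without tumour-free replicate 2 and 231 to 261 without any other sample. The 1053 of TIM4+CD206 high KCs became 3634 and 649 when tumour-free replicates 2 and 1 were dropped in turn, and 579 to 637 when any tumour-bearing replicate (1, 2 or 3) was.

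Markers of other cells also moved with tumour. Those counted as higher or lower passed an adjusted p of 0.05 in limma. Beside them, 3.54% (TIM4+CD206+) and 7.23% (TIM4+CD206 high) of all genes tested passed in either direction. Changes of neutrophil and monocyte markers were all positive in each subset, and those of hepatocyte markers all negative. All 6 tumour epithelium markers tested of 7 were higher in each subset, and their summed level went from 11.05, 10.63 and 11.61 to 15.09, 14.95 and 14.87 in TIM4+CD206+ KCs and from 10.84, 11.07 and 10.47 to 15.34, 15.39 and 15.28 in TIM4+CD206 high KCs. The largest changes were of *Krt19* (5.25), *Krt8* (3.85) and *Krt18* (3.16) in the former and of *Krt19* (5.36), *Epcam* (5.08) and *Krt8* (4.83) in the latter, and *Cldn4* was the lowest in value. Of 8 neutrophil markers 4 were higher in each subset (summed level 12.42, 12.61 and 13.60 against 14.49, 14.33 and 13.88 in TIM4+CD206 high KCs, *S100a9* highest per length), and of 7 monocyte markers 3 (14.94, 13.61 and 14.57 against 15.33, 15.22 and 15.24 in TIM4+CD206+ KCs, *Plac8* highest). Of 7 hepatocyte markers 5 were lower in each subset (14.35, 14.07 and 14.48 against 12.63, 12.37 and 12.88 in TIM4+CD206+ KCs, *Apoa1* highest). Stellate cell markers fell in TIM4+CD206 high KCs (3 of 6: *Dcn*, -1.67, *Lrat*, -1.76, and *Colec11*, -1.82), as did the endothelial *Clec4g* (-0.90) and *Oit3* (-1.25) of 7, with summed endothelial levels of 17.92, 17.31 and 17.86 against 16.66, 16.85 and 16.95, and the B cell markers *Cd79a* (-1.08) and *Cd79b* (-0.99). The KC markers *Timd4* (-0.75) and *Adgre1* (-0.93) were lower in TIM4+CD206+ KCs, and the summed KC level was 21.05, 20.53 and 20.72 against 20.28, 20.17 and 20.25. Their part in the tumour results was not tested.

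**Figure D2:**
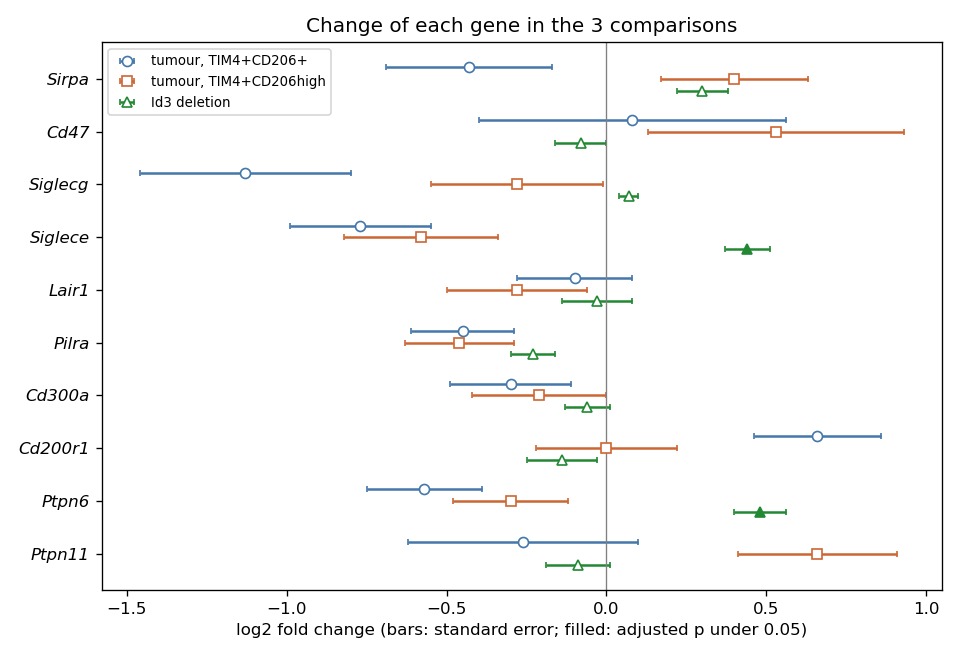
Log2 fold change (horizontal axis) of each of the 10 genes with tumour in each subset and with *Id3* deletion, with its standard error (bar). Filled symbols passed an adjusted p of 0.05, which were *Ptpn6* and *Siglece* with *Id3* deletion.

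The genotype labels were checked on *Id3* itself. It read 12.58, 12.46 and 12.82 in *Id3* f/f and 9.83 and 9.82 in *Clec4f* cre*Id3* f/f KCs. Both deleted samples were far below every control, at -2.80 ± 0.11 (limma, adjusted p = 1.4e-06). Sex-linked genes also separated the groups: *Xist* read 6.38, 6.33 and 6.36 in *Id3* f/f and 9.84 and 9.76 in *Clec4f* cre*Id3* f/f samples, and the Y-linked *Ddx3y* read 9.46, 9.43 and 9.43 against 7.00 and 7.01. Sex and genotype cannot be told apart in this comparison.

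*Ptpn6* and *Siglece* were higher with *Id3* deletion, and *Sirpa* was close to the threshold. *Ptpn6* read 13.76, 13.86 and 13.71 in *Id3* f/f and 14.27 and 14.24 in *Clec4f* cre*Id3* f/f KCs. Both deleted samples were above every control, with means of 13.78 ± 0.08 (SD, n = 3) and 14.25 ± 0.02 (n = 2) and a log2 fold change of 0.48 ± 0.08 (SE; limma, adjusted p = 0.012). *Siglece* read 13.51, 13.51 and 13.54 against 14.00 and 13.93. The groups were apart, at 0.44 ± 0.07 (limma, adjusted p = 0.012). *Sirpa* read 13.80, 13.87 and 13.72 against 14.16 and 14.04. Again both deleted samples were higher, at 0.30 ± 0.08 (limma, adjusted p = 0.057). *Sirpa* passed with the stricter filter on the mean (0.30, adjusted p = 0.043) and under quantile normalisation (0.36, 0.022), and not with the length and GC trend removed (0.21, 0.12). Without *Id3* f/f replicate 3, 4 of the 10 passed, with *Sirpa* (adjusted p = 0.018) and *Pilra* (0.033) added. *Ptpn6* and *Siglece* did not pass once a *Clec4f* cre*Id3* f/f sample was dropped: dropping the first gave log2 fold changes of 0.46 and 0.41 (adjusted p = 0.24 and 0.25), and dropping the second gave 0.49 and 0.48 (0.18 and 0.17). The 827 genes called in all became 17 and 19 in those fits, and 207, 410 and 1850 without *Id3* f/f replicates 1, 2 and 3.

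*Pilra* read 14.07, 14.01 and 14.10 in *Id3* f/f and 13.84 and 13.81 in *Clec4f* cre*Id3* f/f KCs. Both deleted samples were lower, at -0.23 ± 0.07 (limma, adjusted p = 0.09, or 0.047 with the length and GC trend removed). *Cd47* read 14.17, 14.25 and 14.31 against 14.20 and 14.12, and *Ptpn11* 10.04, 10.16 and 9.91 against 9.99 and 9.91. The groups overlapped for both, with log2 fold changes of -0.08 ± 0.08 and -0.09 ± 0.10. *Siglecg*, near the filter at a mean of 3.78 in *Id3* f/f KCs, *Lair1*, *Cd300a* and *Cd200r1* did not pass, with log2 fold changes from -0.14 to 0.07. Under quantile normalisation the signs of *Cd47*, *Lair1* and *Cd300a* turned, to 0.02, 0.09 and 0.02, and that of *Lair1* also turned without *Id3* f/f replicate 1 or 2.

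With *Id3* deletion 2 of the 10 genes passed in limma, both higher, beside 3.08% of the 12833 genes tested that were higher and 6.44% in either direction, and 5 had an unadjusted p under 0.05, beside 23.6%. Both deleted samples were higher than all controls for 4 genes and lower for 2, beside 20.2% and 21.7%. Their median log2 fold change was -0.05, against 0.00 over all genes tested. Median centring moved the share of higher genes among all those called from 47.8% to 37.4%.

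Of 15 activating partners tested, 8 were lower with *Id3* deletion and none higher, beside 3.37% of all genes tested that were lower. Their median change was -0.31. This list and those below were chosen with earlier results of these data known. *Tyrobp*, the adaptor DAP12 with the highest level per length of the list, read 15.49, 15.29 and 15.39 against 14.82 and 14.96 (-0.50 ± 0.08, limma, adjusted p = 0.012). *Clec7a*, which encodes dectin-1, read 13.37, 13.51 and 13.22 against 12.70 and 12.63, at -0.70 ± 0.10 (limma, adjusted p = 0.0058). The largest fall among those that passed was of *Trem2*, at -0.94 ± 0.09 (adjusted p = 0.001). *Cd200r4*, an activating relative of *Cd200r1*, changed by -0.60 ± 0.10 (adjusted p = 0.014). With tumour, *Trem1* and *Trem2* were higher in each subset, with changes of 2.16 and 1.74 for TIM4+CD206+ KCs and 2.10 and 1.63 for the TIM4+CD206 high subset. Monocyte and neutrophil markers also rose there, and their part was not tested. *Pilrb1* and *Pilrb2* were lower with tumour in TIM4+CD206 high KCs, at -0.80 and -0.75.

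The counts below stand beside shares of all genes tested, in either direction, of 3.54% (tumour, TIM4+CD206+), 7.23% (tumour, TIM4+CD206 high) and 6.44% (*Id3* deletion). Of 20 other receptors listed with the inhibitory ones, 2 rose and 2 fell with tumour in TIM4+CD206+ KCs, *Siglecf* (1.64) and *Havcr2* (1.33) against *Cd22* (-0.78) and *Siglec1* (-0.94), whose product lacks the inhibitory tail motif, while *Siglecf* (1.78) and *Cd33* (0.87) rose in TIM4+CD206 high KCs. With *Id3* deletion *Pecam1* rose (0.58) and *Clec12a* (-0.40) and *Fcgr2b* (-0.73) fell among 18 tested. Of the ligands, *Cd24a*, which encodes the Siglec-G ligand CD24, rose with tumour in each subset, by 1.44 ± 0.25 (limma, adjusted p = 0.02) and 1.97 ± 0.25 (adjusted p = 0.0033). Tumour epithelium and neutrophil markers rose in the same samples, and their part in the *Cd24a* rise was not tested. *C1qa*, also on the ligand list, was lower with *Id3* deletion (-0.42). Of 22 kinases, adaptors and other phosphatases of the receptor tails, *Dok3* (0.59), *Inpp5d* (0.52), which encodes SHIP-1, and *Lyn* (0.35) rose with *Id3* deletion and *Ptpn18* fell (-0.51). With tumour limma passed 0 of them in each subset, and 2 and 3 had an unadjusted p under 0.05, beside 17.2% and 21.1% of genes tested. Of 13 substrates and phagocytic genes, all 13 had positive changes with *Id3* deletion, beside 6464 of the 12833 genes tested, and *Pik3cd* (0.82), *Itgb2* (0.57), *Vav1* (0.54) and *Myh9* (0.38) passed. With tumour limma passed 0 of the 13 in each subset, and 5 and 2 had an unadjusted p under 0.05. Changes were negative for 11 in TIM4+CD206+ KCs, beside 6337 of the 13233 genes tested. They were positive for 10 in TIM4+CD206 high KCs, beside 7618 of the 14561 genes tested. *Tcf3* rose (0.57) and *Id1* fell (-0.72) with *Id3* deletion, and *Elk3* fell (-0.90, limma, adjusted p = 0.0499) with tumour in TIM4+CD206 high KCs.

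KC markers and the *Clec4f* gene that drives Cre also differed with *Id3* genotype. *Clec4f* read 17.59, 17.62 and 17.71 in *Id3* f/f and 16.13 and 16.11 in *Clec4f* cre*Id3* f/f KCs (-1.52 ± 0.06, limma, adjusted p = 1.8e-06), and *C1qa* was lower too (-0.42), while *Adgre1* (0.79) and *Cd5l* (0.25) were higher. Of 7 endothelial markers *Clec4g* was lower (-0.80) and *Pecam1* higher (0.58). Of the monocyte markers *Plac8*, the most abundant, was lower (-0.95), with *Vcan* at 0 in every sample. The summed monocyte level was 13.75, 13.58 and 13.85 against 12.81 and 12.94. Of the 5 monocyte markers tested, 2 changes were positive and 3 negative, with a median of -0.06. Their part in the *Id3* results was not tested.

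The genes whose pattern over the 17 samples was most like *Sirpa*, after each table's own gene mean was subtracted, were *Etv5* (r = 0.97), *Paqr9* (0.96), *Zfp384* (0.96), *Hnrnpul1* (0.95) and *Trim8* (0.94), of 12222 genes passing the filter in all 3 tables. Among the 10 genes *Ptpn11* (0.84) and *Cd47* (0.81) were the most like it and *Lair1* (-0.67) the least. *Ptpn6* stood at -0.09. The largest deviations of *Sirpa* from a table mean were 0.78 in tumour-free TIM4+CD206+ replicate 2 and -0.61 in tumour-free TIM4+CD206 high replicate 3. The former sample was also the highest of its subset for *Etv5*, *Paqr9*, *Zfp384*, *Hnrnpul1* and *Trim8*, and the latter the lowest of its subset. How far the r values rest on these samples was not tested.

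Promoter sequences from RefSeq (GRCm38.p6) matched 8 of the 10 genes; *Sirpa* and *Cd200r1* did not match. Each was searched on both strands for the E-box letters CANNTG, which 72.1% of 27025 promoters hold, and for CCGGAA, part of the ETS factor motif, which 15.2% hold. The *Ptpn6* and *Siglece* promoters are shown as those of the genes that passed with *Id3* deletion, and the *Cd47* and *Ptpn11* promoters as those of the genes most like *Sirpa* among the 10, with motif letters in capitals, 5′ to 3′. *Ptpn6* holds 1 CANNTG and 0 CCGGAA, *Siglece* 0 and 0, and *Cd47* and *Ptpn11* 0 CANNTG and 1 CCGGAA each.
Ptpn6 chr6:124738660-124738959 (minus strand): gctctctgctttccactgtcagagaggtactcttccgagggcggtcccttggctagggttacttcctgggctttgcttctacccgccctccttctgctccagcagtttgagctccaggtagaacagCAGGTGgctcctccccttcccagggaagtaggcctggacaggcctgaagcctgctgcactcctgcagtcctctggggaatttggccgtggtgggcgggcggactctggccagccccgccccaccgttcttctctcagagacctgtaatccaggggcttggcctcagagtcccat
Siglece chr7:43660112-43660411 (minus strand): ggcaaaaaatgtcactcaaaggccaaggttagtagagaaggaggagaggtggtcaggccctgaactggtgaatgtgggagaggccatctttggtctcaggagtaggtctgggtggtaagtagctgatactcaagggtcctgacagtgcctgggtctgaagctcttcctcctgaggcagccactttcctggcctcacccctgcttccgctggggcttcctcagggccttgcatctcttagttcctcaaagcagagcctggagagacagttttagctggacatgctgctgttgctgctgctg
Cd47 chr16:49855404-49855703 (plus strand): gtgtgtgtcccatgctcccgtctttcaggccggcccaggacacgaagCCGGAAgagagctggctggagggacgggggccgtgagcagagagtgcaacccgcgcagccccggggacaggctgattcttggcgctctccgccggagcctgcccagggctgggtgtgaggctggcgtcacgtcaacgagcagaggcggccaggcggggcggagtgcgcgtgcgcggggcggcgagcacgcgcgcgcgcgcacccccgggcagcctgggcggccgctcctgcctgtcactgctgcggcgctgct
Ptpn11 chr5:121191348-121191647 (minus strand): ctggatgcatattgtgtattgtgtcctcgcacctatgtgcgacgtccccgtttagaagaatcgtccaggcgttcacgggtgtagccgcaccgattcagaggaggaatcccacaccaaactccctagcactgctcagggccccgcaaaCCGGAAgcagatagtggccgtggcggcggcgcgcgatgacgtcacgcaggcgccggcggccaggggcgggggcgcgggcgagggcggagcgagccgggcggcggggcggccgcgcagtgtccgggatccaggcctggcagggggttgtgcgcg

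Shared sequence was greatest for *Pilra* and *Ptpn6*: 20.8% of the 50-base words of *Pilra* transcripts also occur in transcripts of other genes, most often *Zcwpw1*, whose exons overlap it on the opposite strand, and 5.01% of those of *Ptpn6*, most often *Gm20531*. For *Sirpa* and *Siglece* the share was 0. Where strand was not kept in counting, reads of overlapping genes cannot be told apart.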

How the data were processed

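RNA of sorted mouse KCs was sequenced by the authors after SMART-Seq v4 amplification. Per the submitters' processing notes, reads were processed with STAR (2.7.10a), HTSeq and DESeq2, and the build named there is mm10. The deposited values are log2 values per gene, made separately for each of 3 tables, and their column headers name another unit than the values show. All sample columns were used. limma (3.58.1, R) with a mean-variance trend replaced a count test, since the tables hold no counts. Genes with a value of at least log2 of 10 (3.32) in as many samples as the smaller group holds were tested, with no covariates, Benjamini-Hochberg adjustment over all genes tested, and a 2-sided threshold of 0.05. The fits were tested on simulated data.

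Named genes were the 10 members, *Id3*, the genes passing the threshold in each list (the 3 largest per direction where over 5), the gene of highest level per length of each list, and the 5 most like *Sirpa*. *Ddx3y* and *Xist* were added after their values were seen. The members and lists were chosen with earlier results of these data known. Exon lengths came from GENCODE M21.

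Replicate numbers were checked as pairs: deviations of same-numbered samples correlated at 0.35, 0.56 and 0.15 in TIM4+CD206+ KCs, all over 0.1. Differently numbered samples also correlated, tumour-free 1 with tumour-bearing 3 at 0.30 and tumour-free 3 with tumour-bearing 1 at 0.16, so the numbers pair the samples by that limit without each matching its own number best. The labels do not say that replicates are separate animals. The study's text counts the *Id3* groups as 3 and 2 mice and describes n in general as biological. For the tumour tables, p-values measure the spread between these samples, and the animals behind them are not named.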

Additional observations from a re-analysis of the deposited data

Results flagged for a closer look

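*Sirpa* differences with tumour had opposite signs in the KC subsets. Every tumour-bearing TIM4+CD206+ sample was below the mean of the tumour-free samples, with a log2 fold change of -0.43, and every tumour-bearing TIM4+CD206 high sample was above it, with 0.40. The former was -0.15 when tumour-free replicate 2 was dropped and -0.67 when replicate 1 was, and the latter ranged from 0.19 to 0.61 over single samples dropped. With all samples neither change passed the threshold, the latter passed when tumour-free replicate 2 was dropped, and the difference was not tested.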

How the results depend on the processing

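In TIM4+CD206+ KCs the count of the 10 genes past the threshold was 0, and 1 under quantile normalisation (*Siglece*), 2 with the replicate block (*Siglece* and *Siglecg*), which changed no other call of the 10 there, and 1 with the block after removal of the length and GC trend (*Siglece*), an alternative chosen after seeing the data. That correction added *Pilra* with *Id3* deletion, with the block or without. Leaving out single samples gave 0 to 4 in each subset and 0 to 4 with *Id3* deletion, where the count was 2.

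*Sirpa* with *Id3* deletion passed at 0.30 with the stricter filter on the mean and at 0.36 under quantile normalisation. With the replicate block it passed at 0.27, but *Id3* f/f replicate 3 has no same-numbered deleted sample, so the block also takes that sample out of the estimate, which is 0.27 without it and no block. It did not pass with the length and GC trend removed, at 0.21 (adjusted p = 0.12), or with that correction and the block, at 0.18 (0.084), and ranged from 0.25 to 0.36 over left-out samples. With tumour it ranged from -0.67 to -0.15 in TIM4+CD206+ KCs and from 0.19 to 0.61 in TIM4+CD206 high KCs. In the latter subset *Cd47* ranged from 0.11 to 0.99, *Siglece* from -0.77 to -0.32, *Ptpn6* from -0.40 to -0.15, *Ptpn11* from 0.41 to 0.89, *Siglecg* from -0.53 to -0.08 and *Lair1* from -0.41 to -0.06. The cause was not tested.

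Signs turned only among changes that did not pass: with *Id3* deletion under quantile normalisation for *Cd47* (0.02), *Lair1* (0.09) and *Cd300a* (0.02), and for *Cd200r1* with the length and GC correction and the block (0.01), and in TIM4+CD206 high KCs for *Cd200r1* with that correction (0.16, also with the block). Over left-out samples *Cd47* ranged from -0.30 to 0.66, *Lair1* from -0.24 to 0.03 and *Ptpn11* from -0.54 to 0.08 in TIM4+CD206+ KCs, *Cd300a* from -0.34 to 0.00 and *Cd200r1* from -0.16 to 0.18 in TIM4+CD206 high KCs, and *Lair1* from -0.13 to 0.03 with *Id3* deletion. The cause was not tested.

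Genes called in all numbered 469 in TIM4+CD206+ KCs, 1026 with the replicate block, 907 with block and correction, and 231 to 1022 over left-out samples. In TIM4+CD206 high KCs they numbered 1053, 600 with the filter on the mean, and 579 to 3634 over left-out samples. With *Id3* deletion they numbered 827, 477 with no filter, 2089 with the block, 2082 with block and correction, and 17 to 1850 over left-out samples. The 1850 is the count without *Id3* f/f replicate 3, which the block also removes from the estimate, so the block was not the sole change in that fit. Same-numbered samples correlated at -0.05, -0.13 and -0.05 in TIM4+CD206 high KCs and at -0.07 and -0.10 in the *Id3* table, so there they share only a number, and the block gave 909 in the former. Where 1 deleted sample was left, it was assumed to vary like the controls. *Siglecg* was not tested with the filter on the mean in the *Id3* table.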
